A study of Mus musculus with 16 samples.

Results

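The genes described here are 35 that encode proteins of the synaptic vesicle, the presynaptic active zone, the synaptic cleft and the postsynaptic density. They were taken by name from the 55385 genes of the count table. All 35 were found, and all 35 passed the filter on low counts that left 17019 genes for testing. RNA was measured by poly(A) RNA-seq in brain cortex of mice aged 5 months, in 16 libraries of 4 genotypes with 4 libraries each. Wild-type animals were C57BL/6J, and the labels give no strain for the other genotypes. 5xFAD mice carry human amyloid precursor protein and presenilin transgenes with familial Alzheimer's disease mutations, driven by the neuronal Thy1 promoter. Dp16 mice carry a duplication of the part of chromosome 16 that corresponds to human chromosome 21, a region that holds the mouse App gene. The 5xFAD-Dp16 mice carry both alterations. None of the 35 genes lies in the duplicated region (GRCm38, chromosome 16, 75540514 to 97962622). Wild-type, Dp16 and 5xFAD each had 2 males and 2 females, whereas all 4 5xFAD-Dp16 animals were male. The labels do not say whether each library came from a separate animal, so the p-values measure the spread between these libraries.

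Neurons release transmitter when a vesicle docked at the active zone fuses with the presynaptic membrane. Scaffold proteins of the active zone hold vesicles near calcium channels, the SNARE proteins on vesicle and plasma membrane zip together, and calcium binding to synaptotagmin triggers fusion. Dynamin and its partners then retrieve the vesicle membrane. Across the cleft, neurexins bind neuroligins, and behind the neuroligins the PSD-95 family, the Shank proteins and CaMKII organise the receptors. Loss of synapses is a known feature of cortex with amyloid deposits.

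Upstream sequence is shown for 4 of these genes: Syn1 and Shank3, which had the highest fitted values in 5xFAD-Dp16 relative to 5xFAD, Nlgn2, a GC-rich gene that varied with them, and Napb, which did not. Each stretch runs from 250 to 101 bases before the RefSeq start site (RefSeq, GRCm38.p6), 5′ to 3′ on the gene's strand, and overlaps no Gencode M21 exon. Capitals mark the cAMP response element (CRE) TGACGTCA, the GC box GGGCGG in either orientation, and in Syn1 a match to CAGCACC, any 2 bases, GG, any base and CAG, a form of the RE1 element bound by the repressor REST. The RE1 form was chosen after the Syn1 sequence had been seen.
Syn1, chrX:20921019-20921168, minus strand: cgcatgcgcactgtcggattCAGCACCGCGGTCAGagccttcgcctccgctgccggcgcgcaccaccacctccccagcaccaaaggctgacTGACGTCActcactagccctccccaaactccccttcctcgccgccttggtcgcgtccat
Shank3, chr15:89499358-89499507, plus strand: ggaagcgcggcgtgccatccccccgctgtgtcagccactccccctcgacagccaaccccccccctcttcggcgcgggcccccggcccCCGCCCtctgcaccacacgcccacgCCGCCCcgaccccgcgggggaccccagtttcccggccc
Nlgn2, chr11:69837885-69838034, minus strand: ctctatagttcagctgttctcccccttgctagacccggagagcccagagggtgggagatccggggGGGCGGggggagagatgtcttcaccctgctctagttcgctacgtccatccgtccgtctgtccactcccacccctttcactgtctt
Napb, chr2:148732521-148732670, minus strand: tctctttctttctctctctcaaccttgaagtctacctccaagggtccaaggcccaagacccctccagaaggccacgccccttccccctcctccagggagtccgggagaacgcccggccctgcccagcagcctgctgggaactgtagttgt
The RefSeq promoter table held 42 start-site windows for 27 of the 35 genes. In the 250 bases before the start, searched on both strands, the GC box occurred in 35.7% of the member windows and in 32.7% of all 32851 windows. The CRE occurred in 1 of the 27 genes, Syn1, or in 2.38% of the member windows (1 of 42) against 1.55% of all windows. The RE1 form also occurred only in Syn1 among the 27 genes, in 1 of the 42 member windows (2.38%) and in 0.052% of all windows. The stricter RE1 form, CAGCACC and GGACAG with 2 bases between them, occurred in none of the 27 and in 0.033% of all windows. GC content of the printed stretches was 66.7% for Syn1, 79.3% for Shank3, 60.7% for Nlgn2 and 61.3% for Napb.

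The libraries held 12483286 to 20385010 reads counted in genes, and the 35 genes took 1.52% to 2.20% of them. Mitochondrial genes took 7.71% to 10.99%. Cortical markers were present in every library, with a summed level of 209.2 to 379.9 CPM (counts scaled to library size with trimmed-mean-of-M-values factors). Markers of striatum were present as well, at 998.7 to 1892 CPM summed over 6 genes, some of which cortex also expresses. The libraries wild-type 2 and 5xFAD 3 stood apart, since their median correlations with the others were 0.939 and 0.938, where the remaining 14 had 0.953 to 0.972.

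Each library also had its own trend with gene length. Spearman's rho was computed, over the tested genes without the 35, between exonic length and a gene's deviation from the mean of the genotype means. It was -0.28, -0.36, -0.13 and 0.43 in wild-type 1 to 4, and -0.042, -0.14, 0.26 and -0.31 in Dp16 1 to 4. It was 0.23, 0.079, -0.46 and -0.24 in 5xFAD 1 to 4, and 0.45, 0.10, 0.36 and 0.20 in 5xFAD-Dp16 1 to 4. Thus all 4 5xFAD-Dp16 libraries had a positive trend, while the other genotypes each held libraries of both signs. The corresponding rho with transcript GC content was 0.039, -0.051, 0.12 and 0.22 in wild-type, and 0.27, -0.13, 0.29 and -0.12 in Dp16. It was -0.074, -0.086, -0.28 and -0.30 in 5xFAD, and 0.24, -0.054, 0.13 and -0.058 in 5xFAD-Dp16. Most of the 35 are long genes. Their median exonic length was 5660 bases against 3066 for all tested genes, and 29 of 35 lay above that median. Their median genomic span was 62535 bases against 21064. Their median transcript GC content was 51.6% against 49.7%, with 20 of 35 above the median of all genes.

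Levels per unit length spanned 3 orders of magnitude. In RPKM, a read count scaled by exonic length and library size, Snap25, the SNARE protein of the presynaptic membrane, averaged 2508 over the 16 libraries. The vesicle protein gene Syp followed at 540.0, then Vamp2, the vesicle SNARE, at 396, and Rab3a, a vesicle-bound GTPase, at 372. Camk2a, the alpha subunit of the postsynaptic kinase CaMKII, stood at 245. The complexins Cplx2 and Cplx1, which clamp and assist SNARE assembly, stood at 194 and 192. The fusion adaptor Napb stood at 142, Stx1a at 129.5, the calcium sensor Syt1 at 122.5 and the ATPase Nsf at 121. Dnm1, the neuronal dynamin, and Camk2b stood at 118.5 and 108. The remaining 22 genes averaged between 2.29 and 75.2 RPKM. The lowest were Nlgn3 at 2.29, the giant active zone scaffold Pclo at 2.54 and its partner Bsn at 3.17. The range of Snap25 over the libraries, 1915 to 3540, lay clear of that of Syp, 406 to 627. Every other pair of neighbours in this order had overlapping ranges.

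**Figure D1:**
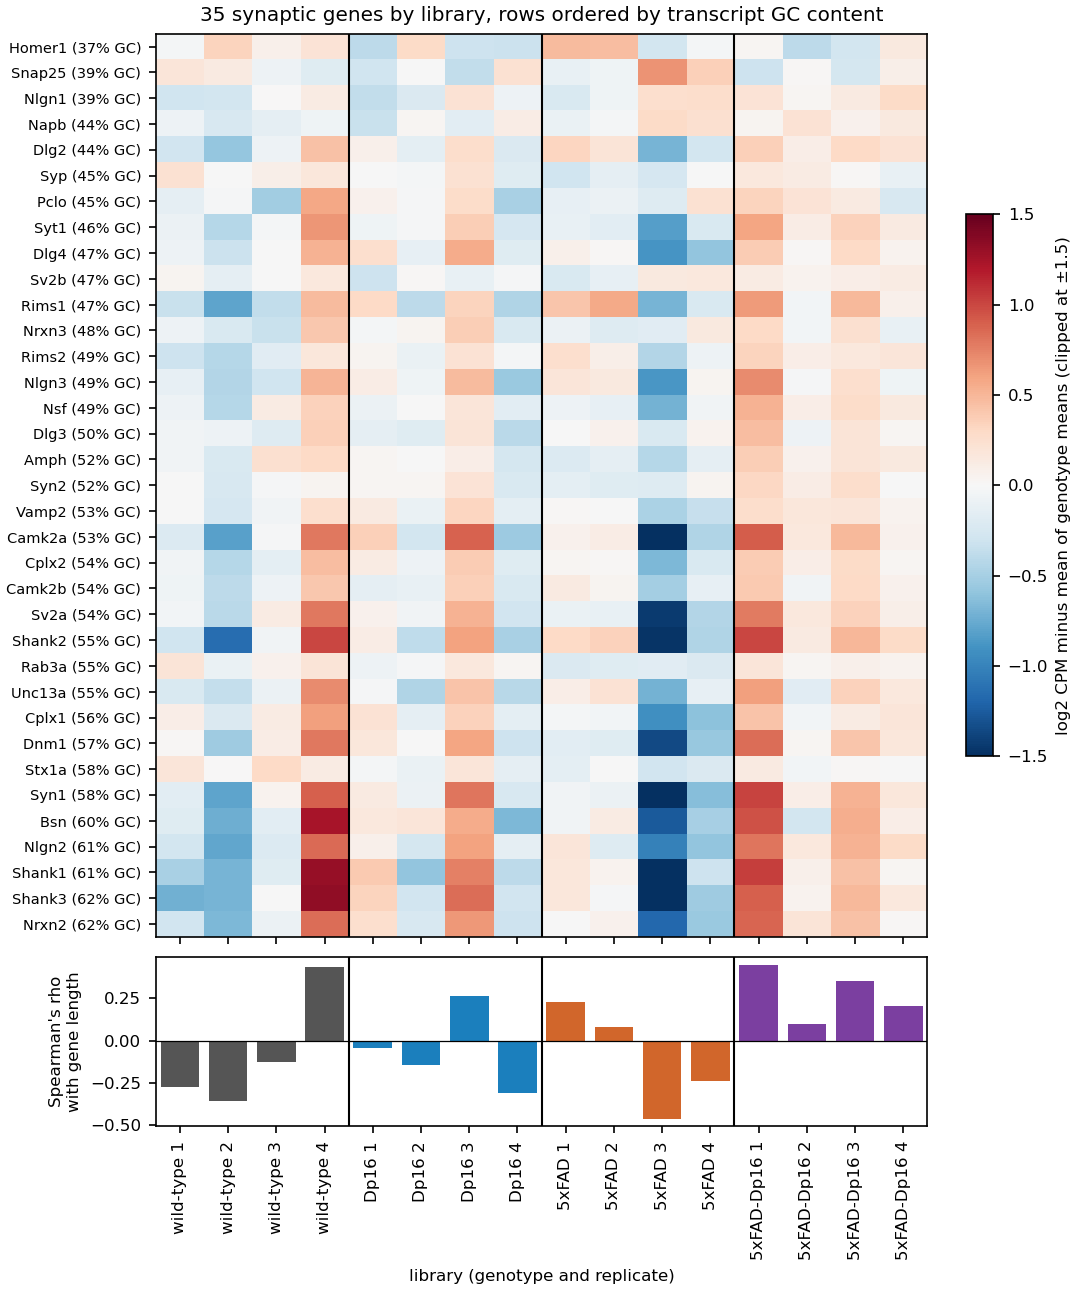
Upper panel: log2 CPM of each of the 35 genes (rows, ordered by GC content of the longest transcript, low at the top) in each of the 16 libraries (columns, by genotype), minus the gene's mean of genotype means. Red is above and blue below that mean, with the colour scale clipped at 1.5 on either side. Lower panel: each library's Spearman's rho between the deviation of the other tested genes and exonic length. Most rows change together across libraries, with wild-type 4, Dp16 3 and 5xFAD-Dp16 1 high and 5xFAD 3 and wild-type 2 low, and the colours deepen toward the GC-rich rows.

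Most of the 35 genes varied together over the 16 libraries. The median deviation of the 35 genes from the mean of genotype means, in log2 CPM, was -0.080, -0.39, -0.054 and 0.46 in wild-type 1 to 4, and 0.059, -0.085, 0.35 and -0.23 in Dp16 1 to 4. It was -0.029, -0.024, -0.69 and -0.22 in 5xFAD 1 to 4, and 0.40, 0.066, 0.28 and 0.091 in 5xFAD-Dp16 1 to 4. Wild-type alone held the highest and the second lowest of the 16 libraries, so the genotypes overlapped. The pooled SD of this median within genotypes was 0.28. In 5xFAD both males, libraries 3 and 4, were low, and both females were close to 0. In every genotype the library with the lowest member median was the one with the lowest length trend. The highest median and the highest trend fell in the same library in wild-type, Dp16 and 5xFAD-Dp16, but not in 5xFAD. Over the 16 libraries, 22 of the 35 genes had a Spearman's rho above 0.8 with the median of the other 34, the highest being Syn1 (0.98), Camk2a (0.97) and Nrxn2 (0.97). These values mix differences between and within genotypes, and each library's genes share its length trend. Snap25 ran against the others, with a rho of -0.81, and Napb (-0.19) and Homer1 (-0.082) were below 0 too. Transcripts of these 3 had GC contents of 38.7%, 44.2% and 36.9%, all below the median of all tested genes. The ratio of the highest to the lowest library ranged from 1.33 for Rab3a to 8.22 for Shank3, with a median of 2.20.

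**Figure D2:**
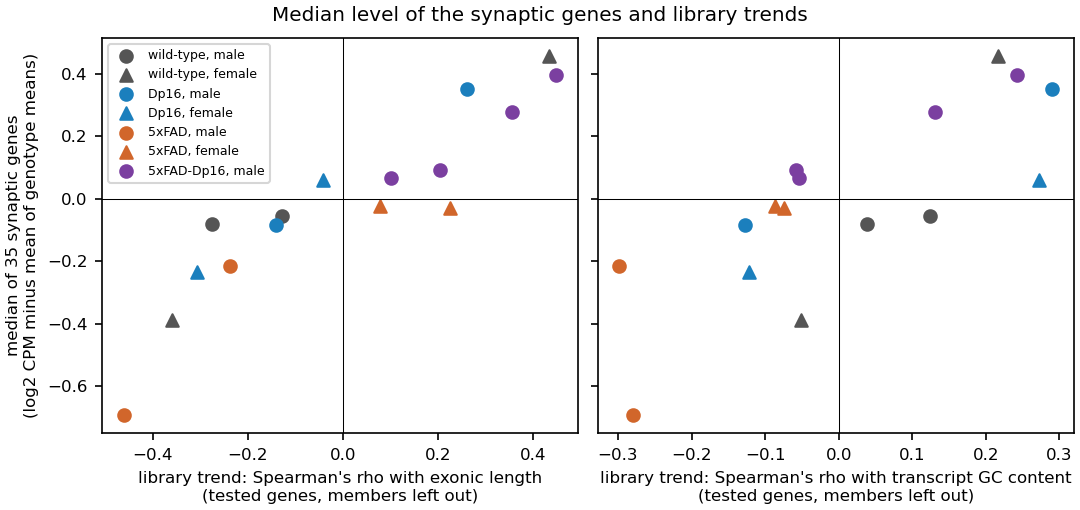
Median deviation of the 35 synaptic genes in each library (log2 CPM minus the mean of genotype means) against the library's Spearman's rho with exonic length (left) and with transcript GC content (right), computed without the 35 genes. Colours give the genotype, circles males and triangles females. The library with the lowest median, 5xFAD 3 at -0.69, had the lowest length trend, and the 4 5xFAD-Dp16 libraries lie to the right of 0 in the left panel.

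No synaptic gene of the 35 passed the threshold in any of the 6 comparisons that follow. The threshold was an adjusted p under 0.05 (edgeR, quasi-likelihood test, model with genotype and sex), where p-values of all 17019 genes were adjusted together by the method of Benjamini and Hochberg. Fold changes are log2 values from that model, positive where the first genotype named is higher. An effect of fewer synapses or neurons and one of less RNA per cell cannot be told apart in bulk tissue.

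The comparison of Dp16 with wild-type asks what the duplication does alone. The 35 genes showed no common direction: 17 fitted values were positive and 18 negative, with a median of -0.003 against 0.002 for all tested genes. None of the 35 passed, against 0.0176% of all genes. None had an unadjusted p under 0.05, against 3.88% of all genes, and DESeq2 called none, against 0.206%. The extremes were Homer1, a postsynaptic adaptor, at -0.29 ± 0.19 (log2 fold change ± SE) and Rims2, an active zone scaffold that tethers vesicles to calcium channels, at 0.21 ± 0.15 (edgeR adjusted p = 1.0 for both). The role groups had medians from -0.067 for vesicle proteins to 0.094 for adhesion proteins. Without Dp16 replicate 3 the median of the 35 was -0.18, and without wild-type replicate 4 it was 0.20, so this value turned its sign with single libraries. In males only it was 0.23, with 28 of 35 positive.

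Between 5xFAD and wild-type, 29 of 35 fitted values were negative, with a median log2 fold change of -0.24 against 0.019 for all genes. None of the 35 passed, against 0.176% of all genes, of which 27 were higher and 3 lower. Unadjusted p was under 0.05 for 7 genes, or 20.0% of the 35 against 10.7% of all genes: Cplx1, Stx1a, Rab3a, Syp, Dnm1, Sv2a and Amph. DESeq2 called 1 gene, Rab3a, lower, against 1.38% of all genes called. All 7 vesicle genes were negative, with a median of -0.29, as were the endocytosis genes Dnm1 at -0.68 ± 0.29 and Amph at -0.30 ± 0.13. The postsynaptic group had 8 of 9 negative, with a median of -0.29, while the active zone and adhesion groups were near 0, at -0.061 and -0.041. Without wild-type replicate 4 the median of the 35 was 0.009, with 18 values positive. Without 5xFAD replicate 3 it was -0.086, and in males only it was -0.36.

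Syp encodes synaptophysin, an abundant protein of the vesicle membrane and a common stain for synapses (ENSMUSG00000031144.15, chrX:7638471-7653256). Its level was 1627, 1389, 1480 and 1563 in wild-type, 1382, 1365, 1623 and 1225 in Dp16, 1131, 1266, 1171 and 1387 in 5xFAD and 1549, 1513, 1403 and 1291 in 5xFAD-Dp16 (CPM, libraries 1 to 4 of each genotype). All 4 5xFAD libraries were below all 4 wild-type libraries, although 5xFAD 4 and wild-type 2 were nearly level. The means were 1515 ± 103 in wild-type and 1239 ± 114 in 5xFAD (SD, n = 4), a log2 fold change of -0.29 ± 0.11 (edgeR adjusted p = 0.37). Stx1a and Rab3a also had all 4 5xFAD libraries below all 4 wild-type libraries. These 3 genes are 8.57% of the 35, against 2.68% of all genes with that pattern. Rab3a varied least within 5xFAD, at 568, 584, 589.7 and 569 CPM in 5xFAD against 753, 616, 692 and 756 in wild-type. Stx1a, the syntaxin of the presynaptic membrane, stood at 251, 278, 228 and 239.8 CPM in 5xFAD against 316, 279, 342 and 304 in wild-type. Rab3a and Stx1a are short genes and Syp too, with exonic lengths of 1788, 2162 and 2591 bases. Their transcript GC contents were 55.0%, 57.9% and 45.4%. The GC trends of the libraries ran from -0.298 to -0.074 in 5xFAD and from -0.051 to 0.217 in wild-type.

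**Figure D3:**
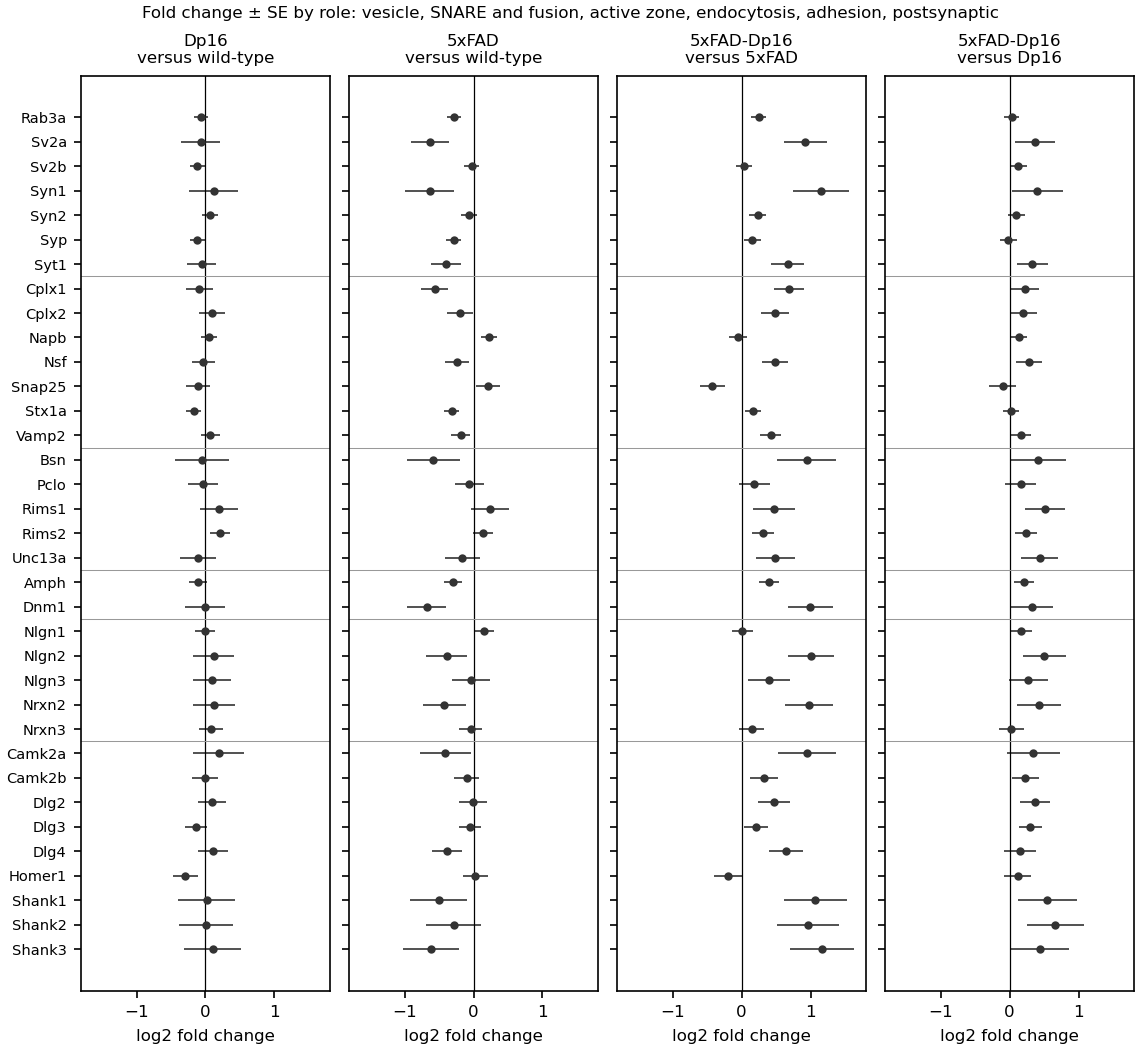
Log2 fold change ± SE (edgeR, model with genotype and sex) of each of the 35 genes in 4 comparisons, in rows ordered by role and separated by grey lines. The values scatter about 0 in Dp16 versus wild-type, 29 of 35 are negative in 5xFAD versus wild-type, and 32 of 35 are positive in 5xFAD-Dp16 versus 5xFAD, where Snap25 lies farthest below 0.

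The comparison of 5xFAD-Dp16 with 5xFAD asks what the duplication adds to the amyloid transgenes. Of the 35, 32 values were positive and 3 negative, with a median log2 fold change of 0.47 against -0.002 for all genes. None of the 35 passed, against 0.0% of all genes. Unadjusted p was under 0.05 for 19 of 35, or 54.3%, against 23.8% of all genes, so a large share of the transcriptome leaned in this comparison. DESeq2 called 6 of the 35, all higher: Cplx1, Dnm1, Nlgn2, Nrxn2, Sv2a and Syn1. It called 7.5% of all genes to which it gave an adjusted p. In 9 of the 35, or 25.7%, all 4 5xFAD-Dp16 libraries lay above all 4 5xFAD libraries, against 5.59% of all genes: Vamp2, Amph, Cplx2, Dnm1, Rab3a, Nsf, Syt1, Syn1 and Sv2a. All 9 belong to the 16 genes of the vesicle, fusion and endocytosis groups.

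In the vesicle group all 7 values were positive, with a median of 0.25. Sv2a, a vesicle glycoprotein and the binding site of the antiepileptic levetiracetam, had the smallest p of the group (ENSMUSG00000038486.9, chr3:96181151-96195521). Its level was 128, 99.9, 144 and 229 in wild-type, 138, 127, 189.6 and 109 in Dp16, 124, 123, 49.0 and 97.6 in 5xFAD and 226, 148, 167 and 140.0 in 5xFAD-Dp16 (CPM). The 5xFAD-Dp16 libraries were all above the 5xFAD libraries, of which 5xFAD 3 was the lowest of the 16. The means were 170.3 ± 38.9 and 98.2 ± 34.96 (SD, n = 4), a log2 fold change of 0.93 ± 0.31 (edgeR adjusted p = 0.15). Its paralog Sv2b had a value of 0.033 ± 0.12. Syn1, synapsin I, which ties vesicles to actin, had 1.15 ± 0.40, and its paralog Syn2 had 0.23 ± 0.12. In Syn1 the libraries stood at 216, 212, 73.2 and 144 CPM in 5xFAD and 452, 240.0, 323 and 252 in 5xFAD-Dp16, with wild-type at 202, 129.5, 233 and 418. The wild-type libraries overlapped both.

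Among the SNARE and fusion genes 5 of 7 values were positive, with a median of 0.42. Cplx1, complexin 1, had the smallest p of all 35 (ENSMUSG00000033615.9, chr5:108518554-108550024). Its level was 435, 350.4, 443 and 622 in wild-type, 472, 369.6, 518 and 365 in Dp16, 398, 395, 214 and 266 in 5xFAD and 547, 396, 441 and 460.3 in 5xFAD-Dp16 (CPM). The 2 male 5xFAD libraries, 3 and 4, were the lowest of the 16, while the females 1 and 2 reached the level of 5xFAD-Dp16 2. The means were 461 ± 63.3 and 318 ± 92.8 (SD, n = 4), a log2 fold change of 0.69 ± 0.22 (edgeR adjusted p = 0.15). Its paralog Cplx2 had 0.48 ± 0.21. Snap25 had the opposite sign (ENSMUSG00000027273.13, chr2:136713453-136782428). Its level was 6265, 6086, 5262 and 4894 in wild-type, 4508, 5499, 4272 and 6465 in Dp16, 5143, 5289, 8804 and 7084 in 5xFAD and 4465, 5610, 4620 and 5898 in 5xFAD-Dp16 (CPM). The 2 male 5xFAD libraries held the highest Snap25 of the 16, and the 5xFAD females lay within the 5xFAD-Dp16 range. The fold change was -0.42 ± 0.19 (edgeR adjusted p = 0.19). Its SNARE partner Vamp2 had 0.42 ± 0.16, with 5xFAD at 1115, 1100, 793 and 873 CPM and 5xFAD-Dp16 at 1321, 1247, 1257 and 1148. Napb, at -0.051 ± 0.12, was the other negative value of this group. Nsf, which takes spent SNARE complexes apart with Napb, had 0.49 ± 0.19.

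Both endocytosis genes were positive, Amph at 0.40 ± 0.15 and Dnm1 at 1.00 ± 0.32. Dnm1 pinches vesicles off the plasma membrane (ENSMUSG00000026825.17, chr2:32308471-32353338). Its level was 538, 367, 575 and 918 in wild-type, 596, 530.2, 801 and 429 in Dp16, 477, 469.9, 209 and 358 in 5xFAD and 948, 541, 707 and 597 in 5xFAD-Dp16 (CPM). Every 5xFAD library was below every 5xFAD-Dp16 library, and below 3 of the 4 wild-type libraries. The means were 698 ± 180.2 and 379 ± 126 (SD, n = 4; edgeR adjusted p = 0.15).

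In the active zone group all 5 values were positive, with a median of 0.47. Bsn had 0.95 ± 0.43, Unc13a, which primes vesicles for fusion, 0.49 ± 0.28 and Pclo 0.19 ± 0.23. Rims1 and Rims2, the active zone organisers, had their smallest p against wild-type and are described there.

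In the adhesion group all 5 values were positive, with a median of 0.40. Nlgn2, the neuroligin of inhibitory synapses, had the smallest p of the group (ENSMUSG00000051790.15, chr11:69823122-69837784). Its level was 54.9, 38.7, 57.4 and 119.6 in wild-type, 69.8, 55.0, 100.3 and 60.2 in Dp16, 75.0, 57.8, 32.8 and 43.9 in 5xFAD and 115, 74.1, 94.8 and 80.7 in 5xFAD-Dp16 (CPM). 5xFAD 1 stood just above 5xFAD-Dp16 2, and the other 3 5xFAD libraries were below all of 5xFAD-Dp16. The fold change was 1.01 ± 0.33 (edgeR adjusted p = 0.15). Nrxn2, a presynaptic neurexin, was the adhesion gene with the highest RPKM (ENSMUSG00000033768.17, chr19:6418731-6544169). Its level was 124, 94.3, 142 and 269 in wild-type, 179, 127, 237 and 122 in Dp16, 149.6, 158, 66.7 and 103 in 5xFAD and 277, 173, 205 and 153 in 5xFAD-Dp16 (CPM). Its libraries overlapped at 158 CPM in 5xFAD 2 and 153 in 5xFAD-Dp16 4. The fold change was 0.97 ± 0.35 (edgeR adjusted p = 0.16). The paralogs had smaller values, with Nrxn3 at 0.15 ± 0.18, Nlgn3 at 0.40 ± 0.30, and Nlgn1, the neuroligin of excitatory synapses, at 0.013 ± 0.15.

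In the postsynaptic group 8 of 9 values were positive, with a median of 0.64. Dlg4 encodes PSD-95, the central scaffold of excitatory synapses (ENSMUSG00000020886.17, chr11:70016942-70047522). Its level was 644, 543, 677 and 975 in wild-type, 811, 622, 1000 and 599.7 in Dp16, 717, 689.5, 367 and 450.3 in 5xFAD and 885, 686, 837 and 702 in 5xFAD-Dp16 (CPM). Both 5xFAD males were low, and both 5xFAD females lay within the 5xFAD-Dp16 range. The fold change was 0.64 ± 0.24 (edgeR adjusted p = 0.16). Camk2a (ENSMUSG00000024617.16, on chromosome 18) had 0.95 ± 0.42 (edgeR adjusted p = 0.19). Its level was 1093, 717, 1247 and 2186 in wild-type, 1614, 1040, 2331 and 859.9 in Dp16, 1318, 1361, 433 and 923 in 5xFAD and 2362, 1409, 1767 and 1321 in 5xFAD-Dp16 (CPM). 5xFAD 3 was the lowest of the 16, and 5xFAD 2 stood above 5xFAD-Dp16 4. The 3 Shank genes, scaffolds beneath PSD-95, had 1.07 ± 0.46, 0.96 ± 0.45 and 1.17 ± 0.46 for Shank1, Shank2 and Shank3. The PSD-95 relatives Dlg2 and Dlg3 had 0.47 ± 0.23 and 0.21 ± 0.17. Homer1 was negative, at -0.20 ± 0.21, and Camk2b was 0.32 ± 0.20.

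**Figure D4:**
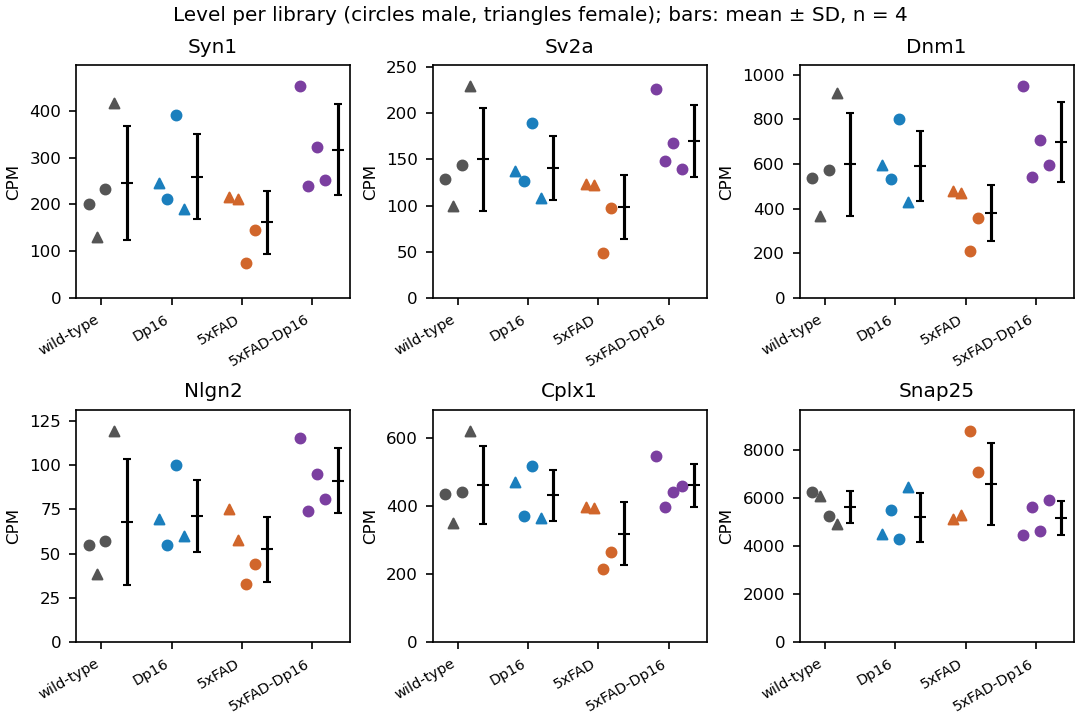
CPM of Syn1, Sv2a, Dnm1, Nlgn2, Cplx1 and Snap25 in every library by genotype, circles for males and triangles for females, with the mean ± SD of 4 libraries to the right of each genotype. In the first 5 genes the 2 male 5xFAD libraries are the lowest of their genotype, and in Snap25 they are the highest of all 16.

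This comparison depended on which libraries entered the fit. With only the 5xFAD-Dp16 and 5xFAD libraries and the sex term, so that in effect 4 males were set against 2, edgeR called 5020 genes (31.3% of those tested) and 23 of the 35, 22 higher and Snap25 lower. Among males of all genotypes it called 3956 genes (22.5%) and 22 of the 35, 21 higher and Snap25 lower. With the same 2 genotypes and no sex term it called 0 genes. With no filter on low counts it called 2215 of 29145 genes (7.6%) and 18 of the 35. Without 5xFAD replicate 3 the median of the 35 was 0.29 and 3 had an unadjusted p under 0.05, or 8.57% against 6.63% of all genes, a share near the background. Since no 5xFAD-Dp16 female was measured, no comparison could be made in females, and the male contrast rests on the 2 low 5xFAD libraries. Their length trends were -0.46 and -0.24, against 0.10 to 0.45 in the 5xFAD-Dp16 libraries.

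In the comparisons with 5xFAD the fold changes of the 35 were ordered by transcript GC content more than by length. Across the 35 genes, which are not independent replicates, the rho of the 5xFAD-Dp16 versus 5xFAD fold change was 0.76 with GC content, 0.077 with exonic length and -0.18 with genomic span. For 5xFAD versus wild-type it was -0.75 with GC content, 0.19 with exonic length and 0.39 with span. These comparisons share the 5xFAD libraries. In comparisons without 5xFAD libraries, GC content also came first for 5xFAD-Dp16 versus Dp16, with a rho of 0.55 against 0.325 with exonic length. For 5xFAD-Dp16 versus wild-type the values were 0.48 and 0.35. The interaction, which includes the 5xFAD libraries, had 0.78 and -0.007. For Dp16 versus wild-type the rho was 0.19 with GC content and 0.29 with exonic length. The 17 genes with the higher GC content had a median of 0.95 in 5xFAD-Dp16 versus 5xFAD, all 17 positive, and the 18 with the lower had a median of 0.22, with 15 positive. Against wild-type, the same genes had medians of -0.41 and -0.038 in 5xFAD. Paralogs did not all follow this order. Sv2a, Syn1 and Nlgn2, with GC contents of 54.2%, 57.9% and 60.7%, had higher values than Sv2b, Syn2 and Nlgn1, with 46.8%, 51.6% and 38.9%. Dlg4 and Dlg2, at 46.8% and 44.3%, had higher values than Dlg3 at 50.5%. Rims1 at 47.4% was above Rims2 at 48.9%, and Camk2a at 53.3% above Camk2b at 53.9%. Nor did Rab3a and Stx1a, with GC contents of 55.0% and 57.9% and fold changes of 0.25 and 0.17.

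Each library's smooth trend with length and GC content, estimated without the 35 genes, was then removed inside the model. The median of 5xFAD-Dp16 versus 5xFAD went from 0.47 to 0.27 with the length trend removed, to 0.38 with the GC trend removed, and to 0.16 with both removed, when 24 of 35 values were positive. None of the 35 passed in edgeR with both removed, and 13 had an unadjusted p under 0.05, or 37.1% against 17.9% of all genes. For 5xFAD versus wild-type the median went from -0.24 to -0.069, with 12 of 35 positive. After removal of both, the vesicle group had a median of 0.36 in 5xFAD-Dp16 versus 5xFAD, above the 0.25 as fitted, but with 5 rather than 7 of 7 positive. The SNARE group went from 0.42 to 0.12 and the postsynaptic group from 0.64 to 0.21. The active zone and adhesion groups went to -0.075 and -0.022, and the endocytosis group from 0.70 to 0.36. Across the 35 genes, the rho of this fold change with both removed was -0.52 with exonic length and 0.365 with GC content. The 17 longer genes then had a median of 0.022, with 9 positive, and the 18 shorter genes 0.306, with 15 positive. Whether the role groups differed apart from gene length was not tested. With both trends removed, Syn1 stood at 0.80, Sv2a at 0.62, Cplx1 at 0.60, Syt1 at 0.59 and Dnm1 at 0.51. Of the 11 negative values, Homer1 was the lowest at -0.283, and Nrxn3 and Sv2b stood at -0.268 and -0.197. When 5xFAD replicate 3 was left out as well, the median of the 35 was 0.092, with 23 positive. Nlgn2 and Nrxn2 moved to 0.29 and 0.062, and Shank3 to 0.32. Snap25 changed sign, to 0.065. Among males with both trends removed, edgeR called 14 of the 35, of 2254 genes (12.8%) in all. Higher were Cplx1, Dlg2, Dlg4, Dnm1, Nsf, Rab3a, Shank2, Sv2a, Syn1, Syp, Syt1 and Vamp2, and lower were Nrxn3 and Sv2b.

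**Figure D5:**
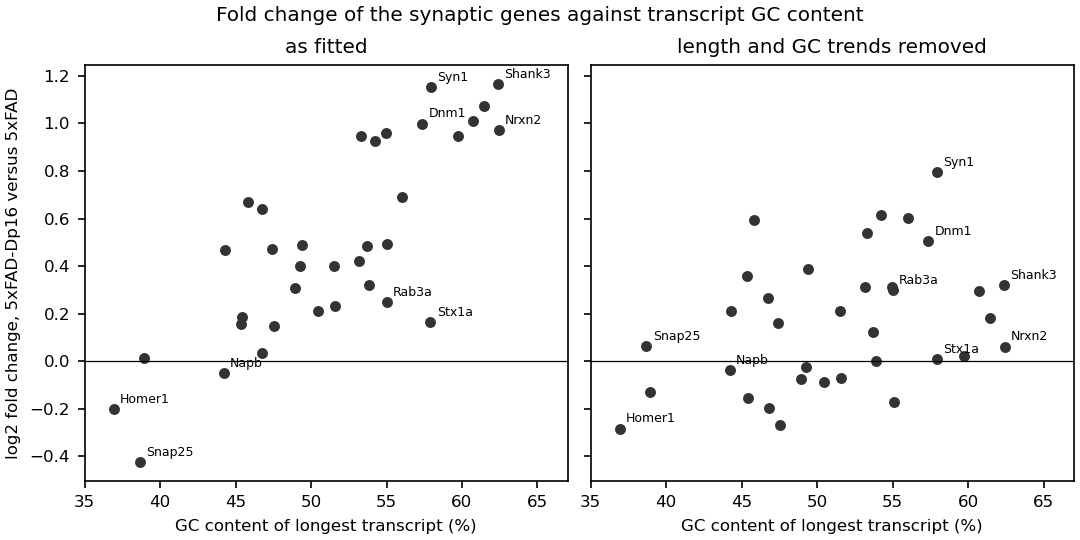
Log2 fold change of the 35 genes in 5xFAD-Dp16 versus 5xFAD against the GC content of the longest transcript, as fitted (left) and with each library's length and GC trends removed (right). On the left the values climb from Snap25 at -0.42 to Shank3 at 1.17, and on the right Syn1 remains at 0.80 while Shank3 lies at 0.32 and Nrxn2 at 0.062.

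Against Dp16, which asks what the amyloid transgenes add to the duplication, 33 of 35 values in 5xFAD-Dp16 were positive, with a median of 0.24 against 0.013 for all genes. None passed, against 0.0176% of all genes, none had an unadjusted p under 0.05, against 5.29%, and DESeq2 called none, against 0.147%. Only Sv2b had all 5xFAD-Dp16 libraries above all Dp16 libraries, at 395, 375, 389 and 393 against 293, 367, 334 and 356 CPM, or 2.86% of the 35 against 2.82% of all genes. The largest value was 0.66 ± 0.41 for Shank2 (edgeR adjusted p = 0.76). The median was 0.45 without Dp16 replicate 3 and 0.15 without 5xFAD-Dp16 replicate 1. It was 0.070 in males only, 0.068 with only these 2 genotypes fitted, each with 29 of 35 positive, and 0.095 with 25 positive when the length and GC trends were removed.

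Against wild-type, 30 of 35 values in 5xFAD-Dp16 were positive, with a median of 0.26 against 0.024 for all genes. None passed, against 0.047% of all genes. Unadjusted p was under 0.05 for 2 genes, Rims2 and Rims1, or 5.71% against 10.4% of all genes, and DESeq2 called none, against 0.623%. Only Napb had all 5xFAD-Dp16 libraries above all wild-type libraries, or 2.86% of the 35 against 2.37%. Rims2 (ENSMUSG00000037386.16, chr15:39198261-39684372) was measured at 55.7, 51.0, 61.0 and 77.5 in wild-type, 71.1, 64.2, 80.1 and 67.5 in Dp16, 81.9, 73.2, 50.8 and 65.5 in 5xFAD and 86.8, 73.7, 76.6 and 78.2 in 5xFAD-Dp16 (CPM). Wild-type 1, 2 and 3 lay below every 5xFAD-Dp16 library, and wild-type 4 lay among them. The fold change was 0.45 ± 0.16 (edgeR adjusted p = 0.45). Rims1 (ENSMUSG00000041670.17, chr1:22286251-22805994) was measured at 100.4, 73.6, 97.9 and 177 in wild-type, 156, 96.7, 160.3 and 93.0 in Dp16, 169, 188, 78.5 and 109 in 5xFAD and 198, 123, 178 and 134 in 5xFAD-Dp16 (CPM). Both 5xFAD females and wild-type 4 lay between 5xFAD-Dp16 4 and 5xFAD-Dp16 1. The fold change was 0.71 ± 0.30 (edgeR adjusted p = 0.47). Without 5xFAD-Dp16 replicate 1 the median of the 35 was 0.17, and with the length and GC trends removed it was 0.082, with 22 positive.

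The interaction asks whether the effect of the amyloid transgenes differed with and without the duplication. Of the 35 values 33 were positive, with a median of 0.37 against -0.011 for all genes. None passed, against 0.0% of all genes. Unadjusted p was under 0.05 for 6 genes, or 17.1% against 9.35% of all genes: Cplx1, Amph, Sv2a, Dnm1, Syt1 and Rab3a. DESeq2 called none, against 0.123%. Cplx1 had the smallest p, with an interaction of 0.78 ± 0.29 on the log2 scale (edgeR adjusted p = 0.52). Without 5xFAD replicate 3 the share with an unadjusted edgeR p under 0.05 was 0% of the 35 against 4.12% of all genes. It was 0% against 5.01% without wild-type replicate 4, 57.1% against 22.8% without wild-type replicate 2 and 65.7% against 20.7% without Dp16 replicate 3. The median was 0.61 without Dp16 replicate 3, 0.59 without wild-type replicate 2, 0.27 without 5xFAD replicate 3 and 0.25 without wild-type replicate 4. With the length and GC trends removed it was 0.17, with 25 of 35 positive.

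A further 132 genes with the same roles gave the wider background. In edgeR 0 of the 132 passed in each of the 6 comparisons. Their medians ran 0.001 in Dp16 versus wild-type, -0.18 in 5xFAD versus wild-type, 0.32 in 5xFAD-Dp16 versus 5xFAD, 0.19 against Dp16, 0.18 against wild-type and 0.33 for the interaction. In 5xFAD-Dp16 versus 5xFAD 52 of 132 had an unadjusted p under 0.05, or 39.4% against the 23.8% of all genes, and 108 of 132 were positive. DESeq2 called 10, all higher, or 7.58%, a share near the 7.5% of all genes called in either direction. That 7.5% was 456 genes higher and 325 lower, of the 10418 given an adjusted p. All 4 libraries of 5xFAD-Dp16 lay above all of 5xFAD for 24 of the 132, or 18.2% against 5.59%. The largest group median there was 0.53 in the postsynaptic genes, with 29 of 31 positive, followed by 0.42 in the vesicle genes, with 20 of 23. With the length and GC trends removed, the median of the 132 in that comparison was 0.072.

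Markers of cell types were examined too, and only genes of the microglial, disease-associated microglial and astrocyte lists passed in any comparison. The 11 markers of excitatory neurons summed to 735.1 to 1494 CPM in wild-type, 817.5 to 1361 in Dp16, 514.9 to 981.8 in 5xFAD and 1008 to 1513 in 5xFAD-Dp16, so that 5xFAD-Dp16 lay above 5xFAD. None of the 11 passed in any comparison, and 10 were positive in 5xFAD-Dp16 versus 5xFAD, with a median of 0.47. Other lists were as high or higher there. Medians were 1.015 for 6 markers of choroid plexus and ependyma and 0.80 for 6 of hippocampus and thalamus. Some genes of these lists were near the floor, such as Folr1 at 0 to 4.10 CPM and Tdo2 at 0 to 2.96 CPM. The hippocampus and thalamus markers summed to 185.2 to 220.5 CPM in 5xFAD and 207.0 to 247.7 in 5xFAD-Dp16, which overlapped. Medians of other lists were 0.71 for 6 of oligodendrocyte precursors, 0.62 for 6 of endothelium and 0.59 for 6 of mural cells and fibroblasts. Negative medians were found for microglia (-0.46), disease-associated microglia (-0.71), astrocytes (-0.084) and blood (-0.16). The 10 pan-neuronal markers summed to 4681 to 5342 CPM over all libraries and the 12 inhibitory markers to 1514 to 1805. Of the 10 markers of disease-associated microglia, 7 rose in 5xFAD versus wild-type, and 2 each in 5xFAD-Dp16 versus Dp16 and versus wild-type (edgeR adjusted p under 0.05). They summed to 127.0 to 152 CPM in wild-type, 149.8 to 179 in Dp16, 274 to 524 in 5xFAD and 208 to 236 in 5xFAD-Dp16. The 12 immediate early genes, induced by neuronal activity, had medians of -0.73 in Dp16 versus wild-type, -0.59 in 5xFAD versus wild-type and 0.69 in 5xFAD-Dp16 versus 5xFAD, with none passing. Of the remaining lists, 2 of 9 microglial and 1 of 9 astrocyte markers rose in 5xFAD versus wild-type, and no marker of oligodendrocytes, their precursors, endothelium, mural cells, choroid plexus, blood, striatum, hippocampus or cortex passed in any comparison. The 9 markers of myelinating oligodendrocytes summed to 8248 to 9507 CPM in wild-type, 6023 to 8246 in 5xFAD and 6849 to 7121 in 5xFAD-Dp16, and the precursor markers to 50.7 to 126, 30.6 to 89.9 and 65.2 to 119. Endothelial markers summed to 71.2 to 128 CPM in 5xFAD against 144 to 200.2 in wild-type and 124 to 198 in 5xFAD-Dp16. Choroid plexus and ependymal markers summed to 16.7 to 30.02 CPM in wild-type, 12.75 to 115.5 in Dp16, 12.21 to 20.44 in 5xFAD and 11.07 to 716 in 5xFAD-Dp16. The part of these cell types in the values of the synaptic genes was not tested.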

How the data were processed

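Read counts per gene and RPKM values for 16 mouse cortex libraries were deposited by the authors in 1 table each. Per the submitters' processing notes, the tools were bcl2fastq, FastQC 0.11.5, HISAT2 2.1.0, SAMtools 1.5 and HTSeq 0.6.1, with GRCm38 as the build. Per the labels' protocols, libraries were poly(A)-selected, strand-specific and paired-end. The strand setting and the treatment of multiply mapped reads are not given in the sources used here, so reads shared by near-identical sequence could not be assigned. The deposited RPKM and count values gave each gene's exonic length, and served for levels between genes. 55144 of 55385 gene IDs matched Gencode M21, which gave coordinates, spans and the GC content of the longest transcript.

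The deposited counts were tested with edgeR 4.0.16 (R 4.3.3, TMM scaling, filterByExpr by genotype, robust quasi-likelihood F test, two-sided, common biological coefficient of variation 0.266). The model held genotype and an additive sex term over all 16 libraries, with adjustment over 17019 genes at 0.05. Deviations were taken in log2 CPM with a prior count of 2. Library trends with length, span and GC content were smoothed (lowess span 0.3) without the 35 genes and the 384 genes of the duplicated region, and entered as offsets. Length and GC content removed together were smoothed in 2 passes, and a trend removed alone in a single pass. The alternatives were DESeq2 1.42.0, other scaling, no filter, other sets of libraries, the replicate block and trend removal. The procedure was run on simulated data with the same dispersion for every gene, no sex effect and a length slope in a single library. Those settings differ from these data, so that run cannot show how the fits behave under the library trends and the sex imbalance here.

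The 35 genes, the 132 other synaptic genes and the marker lists were chosen with earlier results of these data known. Given in full are, in each of 6 role groups, the gene with the smallest unadjusted p over the 5 pairwise comparisons and the gene with the highest mean RPKM, besides any that passed. Sv2a, Syp, Cplx1, Snap25, Rims2, Rims1, Dnm1, Nlgn2, Nrxn2, Dlg4 and Camk2a met this rule. The remaining genes named with values, and the 4 promoters shown, were chosen after their values were seen.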

Additional observations from a re-analysis of the deposited data

Results flagged for a closer look

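Of 144 tests for a library far from the others of its genotype, made on 35 genes and the median in 4 genotypes, 6 passed Dixon's 95% critical value for 4 samples, where chance alone gives about 1 in 20. In wild-type, replicate 4 was far above the rest for Bsn (107.5 CPM) and Shank1 (326.2 CPM), both long and GC-rich. In Dp16, replicate 2 was high for Homer1 (210.5 CPM) and replicate 3 for Camk2b (598.8 CPM). In 5xFAD, replicate 4 was high for Syn2 (373.2 CPM) and replicate 3 low for Nsf (273.2 CPM). Wild-type 4, Dp16 3 and 5xFAD 3 were also the libraries of their genotype with the highest, highest and lowest length trends, at 0.43, 0.26 and -0.46. Dp16 2 and 5xFAD 4, at -0.14 and -0.24, were neither the highest nor the lowest of theirs. The 6 flags of 144 were not above the rate that chance alone gives.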

How the results depend on the processing

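Calls among the 35 genes changed only in some fits. With no filter on low counts (29145 genes tested) edgeR called 5 of the 35 in 5xFAD versus wild-type against 0.806% of all genes, 18 in 5xFAD-Dp16 versus 5xFAD against 7.6%, 4 in 5xFAD-Dp16 versus wild-type against 1.0% and 12 in the interaction against 1.19%. DESeq2 called 1 in 5xFAD versus wild-type, or 2.86% against 1.38% of all genes. In 5xFAD-Dp16 versus 5xFAD it called 6, or 17.1% against 7.5%. In that last comparison edgeR called 23 (65.7%) with only the 2 genotypes fitted, against 31.3% of all genes. In males only it called 22 (62.9%), against 22.5%. In males with the length and GC trends removed it called 14 (40%), against 12.8%. The median of that comparison was 0.161 with both trends removed. It was 0.092 when 5xFAD replicate 3 was left out as well, and 0.146 in males with both removed. Snap25 reversed in these 3 fits, to 0.065, 0.063 and 0.016. The cause of these changes was not tested.

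Counts of all genes called moved more. For Dp16 versus wild-type (3) they were 43 with no filter, 35 by DESeq2, 0 with only the 2 groups (also with no sex term), 0 in males (also with trends removed), 16 with the length trend removed, 24 with length and GC trends removed, 1 without wild-type 2 and 5xFAD 3, 24 when the length trend was removed too, and 0 to 2 when single replicates were left out. For 5xFAD versus wild-type (30) they were 235 with no filter, 234 by DESeq2, 7 with only the 2 groups (7 with no sex term), 5 in males, 18 without the 2 libraries that stood apart (18 with the length trend removed too), and 16 to 26 leaving out single replicates. For 5xFAD-Dp16 versus 5xFAD (0) they were 2215 with no filter, 781 by DESeq2, 16 with no sex term, 5020 with only the 2 groups, 3956 in males, 2254 in males with both trends removed, 4 with the length, 2 with the span and 3 with the GC trend removed, 14 with length and GC removed, 10 when 5xFAD 3 was left out as well, 3 without both libraries and the length trend, and 0 to 3 leaving out single replicates. For 5xFAD-Dp16 versus Dp16 (3) they were 45 with no filter, 25 by DESeq2, and 5 or 13 with only the 2 groups, with or without the sex term. For 5xFAD-Dp16 versus wild-type (8) they were 292 with no filter, 106 by DESeq2, 14 with no sex term, 0 with only the 2 groups, 2 in males, 13 with the length and 4 with the span trend removed, 16 with the length trend and both libraries removed, 32 with length and GC trends removed (32 in males too), and 3 to 21 leaving out single replicates. For the interaction (0) they were 346 with no filter, 21 by DESeq2, and 0 to 1 leaving out single replicates.

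The replicate numbers did not pair the libraries: same-numbered libraries of different genotypes had correlated deviations of -0.36 to 0.32 (median -0.016) over 24 pairs, and 1 of 16 libraries was closest to one of its own number. With the replicate number as a block, edgeR called 0 genes in Dp16 versus wild-type and 3 in 5xFAD-Dp16 versus wild-type, 0 of the 35 in any comparison, and the median of the 35 in 5xFAD-Dp16 versus 5xFAD was 0.475. Depth did not limit these genes, whose lowest library held 10.2 CPM (Nlgn3 in 5xFAD 3).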
